A study of Mus musculus and Sus scrofa with 12 samples.

Results

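The 500 widest H3K4me3 peaks of mouse forelimb and the 500 widest of pig forelimb are described here as broad H3K4me3 domains. In each species all called H3K4me3 peaks were ordered by width, end minus start, with ties ordered by chromosome and then start, and the first 500 were taken. They are 1000 of the 37066 H3K4me3 peaks in both species, and 1000 of the 258842 peaks called for the 3 modifications of the series. The mouse domains were 500 of 18353 H3K4me3 peaks (2.72%) and held 4.89% of the base pairs under H3K4me3. The pig domains were 500 of 18713 peaks (2.67%) and held 5.70% of those base pairs.

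The series mapped H3K4me3, H3K27ac and H3K4me1 by ChIPmentation, in which a transposase adds sequencing adapters to chromatin while it is held on the antibody. The tissue was whole forelimb of wild-type embryos from natural matings, taken at E11.5 in mouse and on day 23 of gestation in pig, so all cell types of the limb contributed. Littermates provided the biological replicates, each divided into technical ones. The labels name 2 samples for each modification in each species, while the design text gives pig H3K4me1 a single biological replicate. Each modification of each species was available as 1 consensus list of peak positions with no height, score or value per replicate. No spread between replicates could therefore be computed, the depth behind a peak is unknown, and intervals below are 95% Wilson intervals that cover counting error only. Pig H3K4me3 and H3K27ac libraries were sequenced at 50 bp, and pig H3K4me1 and all mouse libraries at 100 bp before being cropped to 50 bp, and for H3K4me3 and H3K27ac the length of the reads cannot be told apart from the species.

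H3K4me3 is placed by SET1 and MLL methyltransferase complexes, which are drawn to CpG-rich promoters and to transcribing polymerase, and most promoters carry it over a few nucleosomes around the transcription start site (TSS). A small set of promoters carries it far into the gene body. In many tissues such broad domains are known to sit at genes that define the cell's identity, such as lineage transcription factors. H3K4me1 is found at enhancers and on either side of promoters, and H3K27ac at those promoters and enhancers that are active.

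The sequences of a few domains show the CpG content on which the rest of the text turns, with each CpG in capitals and all other bases in lower case. Wnt5a, a secreted WNT ligand that drives limb outgrowth, lay in the second widest mouse domain and is shown as 1 example of a domain at a TSS. The 250 bases before the start of its RefSeq gene record are shown 5′ to 3′ on the gene's strand. The other sequences are the central 250 bases of a mouse and a pig domain that covered no annotated TSS. Mouse coordinates are on GRCm38 and pig coordinates on Sscrofa11.1.
Mouse Wnt5a, chr14:28504293-28504542, plus strand: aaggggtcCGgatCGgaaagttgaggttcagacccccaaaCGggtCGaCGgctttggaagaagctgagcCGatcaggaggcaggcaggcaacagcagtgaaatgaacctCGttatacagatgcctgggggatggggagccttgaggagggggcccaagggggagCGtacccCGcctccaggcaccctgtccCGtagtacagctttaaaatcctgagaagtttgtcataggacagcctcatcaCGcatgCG
Mouse domain of width rank 16, chr4:154674445-154674694, plus strand: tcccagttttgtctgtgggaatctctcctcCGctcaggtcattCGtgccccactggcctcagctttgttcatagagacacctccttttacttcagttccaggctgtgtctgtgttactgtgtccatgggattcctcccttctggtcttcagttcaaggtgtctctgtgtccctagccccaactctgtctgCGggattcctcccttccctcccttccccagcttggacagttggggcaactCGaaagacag
Pig domain of width rank 18, chr14:10022675-10022924, plus strand: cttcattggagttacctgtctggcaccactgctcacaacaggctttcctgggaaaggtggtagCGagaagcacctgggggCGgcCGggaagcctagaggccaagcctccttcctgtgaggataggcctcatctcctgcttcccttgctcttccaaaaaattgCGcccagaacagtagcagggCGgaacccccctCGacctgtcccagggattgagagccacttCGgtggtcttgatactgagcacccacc
The mouse Wnt5a window held 12 CpGs. The mouse domain without a TSS, 2.72 kb from Actrt2, held 4 CpGs in its central 250 bases, or 0.229 of the number that its C and G content would give (the observed over expected ratio). The pig domain without a TSS, inside the gene EBF2, held 7, a ratio of 0.33, which is below the median of 0.661 over the whole width of such pig domains.

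The domains were chosen by their measured width alone, so widths are given as a description. The mouse domains had a median width of 5562 bp (quartiles 5224 and 6066), against a median of 3308 bp over all mouse H3K4me3 peaks. The pig domains had a median of 3547 bp (quartiles 3408 and 3852), against 1679 bp over all pig peaks. The widest mouse domain spanned 10912 bp and the widest pig domain 5763 bp, so the widest pig domain was close in width to the median mouse domain. The 500th peak was 1.52 times the median of all peaks in mouse and 1.96 times in pig. The boundary fell in a continuous range of widths. In mouse the domains of Gdf6 (5038 bp) and Tbc1d22a (5027 bp) were just inside it, and the peaks of Bnip1 (5026 bp), Arrdc3 (5023 bp) and Hoxb3 (5016 bp) just outside. In pig GDF11 (3292 bp), KLF7 (3291 bp), RAP2B and PMEPA1 (both 3290 bp) were inside, and CACNA1C (3289 bp), ZHX2 and PRMT1 (both 3286 bp) were outside.

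The widest mouse domain was at Tbx2, a T-box repressor of limb patterning, at 10912 bp. Wnt5a followed at 10748 bp and Prdm16, a zinc finger transcription regulator, at 9730 bp. Bahcc1 came next at 9540 bp, and 1 domain of 9242 bp held both Mab21l1 and Nbea. Irx5, an Iroquois homeobox factor of proximal and anterior limb, had 9146 bp. The transcription factors Bcl11a (8638 bp) and Sox11 (8116 bp) had similar widths, as had Islr2 (8600 bp) and Brd2 (8452 bp), a reader of acetylated histones. Among the 20 widest were also Gsc (8091 bp) and Msx2 (8050 bp), both homeobox factors, Cyp26b1 (8012 bp), which breaks down retinoic acid in the distal limb, Prrx1 (7907 bp), a defining factor of limb mesenchyme, and Tcf4 (7817 bp). Bicra and the pair Arl6ip4 and Ogfod2 completed the genes of that set, and 3 of the 20 covered no annotated TSS.

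In pig the first domain was at MN1, a transcriptional coregulator, at 5763 bp. TBX15, a T-box factor of limb skeleton, followed at 5742 bp and NRP2, a semaphorin receptor, at 5443 bp. BCORL1 (5272 bp), a corepressor, CD248 (5266 bp), a surface protein of mesenchyme, NR2F2 (4938 bp), an orphan nuclear receptor, IRX2 (4852 bp) and SSBP3 (4850 bp), a cofactor of LIM homeobox factors, came next. PRDM16 (4758 bp), NAB2 (4732 bp), MEX3B (4730 bp), RARA (4709 bp), the retinoic acid receptor alpha, LHX2 (4635 bp), a LIM homeobox factor of limb outgrowth, and DDR1 (4599 bp), a collagen receptor, were also among the 20 widest. IGF2BP1 (4544 bp) and EPHB4 (4534 bp) completed the genes, and 4 of the 20 covered no annotated TSS. Prdm16 was the single gene in the 20 widest of both species.

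**Figure D1:**
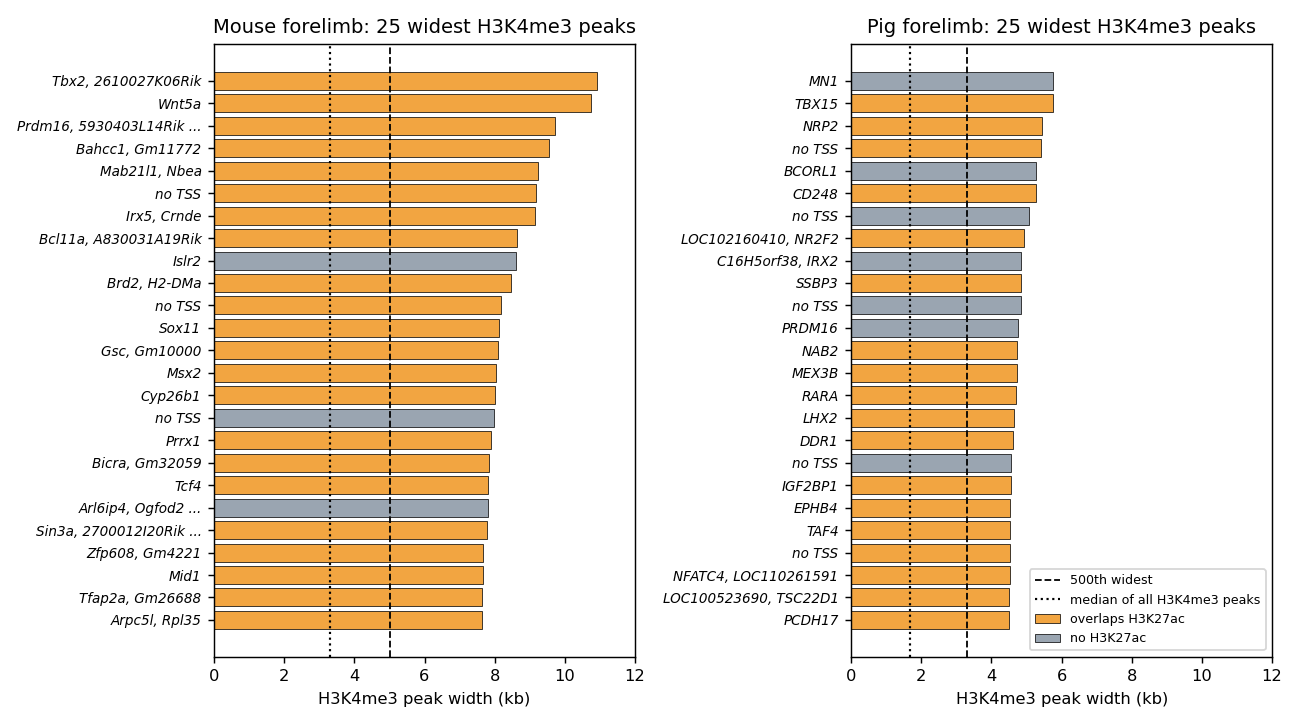
Width in kb of the 25 widest H3K4me3 peaks of each species, named by the genes whose TSS lies within 1 kb; orange bars overlap an H3K27ac peak and grey bars do not. The dashed line is the 500th widest peak (5027 bp in mouse, 3290 bp in pig) and the dotted line the median of all H3K4me3 peaks; each bar is 1 consensus peak with no replicate error.

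A gene was counted as covered when the domain came within 1 kb of the start of any RefSeq transcript of that gene. By this measure 422 of 500 mouse domains covered a TSS (84.4%, interval 81.0 to 87.3), against 79.6% of all mouse H3K4me3 peaks. In pig 466 of 500 did so (93.2%, 90.7 to 95.1), against 71.9% of all pig peaks. The next 500 peaks by width gave 87.6% in mouse and 91.8% in pig, close to the shares of the domains themselves. The mouse domains covered 522 protein-coding genes, 2.40% of the 21774 annotated and 3.69% of the 14158 (65.0% of those annotated) with any H3K4me3 at the TSS, and 126 long noncoding RNA genes. The pig domains covered 542 coding genes, 2.62% of 20661 and 4.04% of the 13410 (64.9%) with H3K4me3, and 45 long noncoding RNA genes. A domain with 2 or more coding genes was found in 23.6% of mouse and 16.6% of pig domains, against 7.98% and 8.35% of all H3K4me3 peaks, so paired promoters joined under 1 peak made up part of both sets. The next 500 peaks by width held 25.4% and 14.8% of that kind.

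The domains reached mostly into the gene. Among domains with 1 coding gene whose 5′ end lay inside, 192 mouse domains extended a median of 1393 bp upstream and 4274 bp downstream of it, and 167 of them (87.0%) reached further downstream. The 290 pig domains of that kind extended 846 bp upstream and 2718 bp downstream, and 267 (92.1%) reached further downstream. Other H3K4me3 peaks at a TSS also leaned downstream, with 864 and 2487 bp in mouse and 514 and 1252 bp in pig. Of these, 93.8% in mouse and 89.6% in pig reached further downstream, and of the next 500 by width 91.6% and 90.4%. The mouse share of the domains (interval 81.5 to 91.0) was below both. For pig, both lay within the interval of the domains (88.4 to 94.7). The longest downstream reach in mouse was at Wnt5a (9484 bp), followed by Bahcc1 (9319 bp), Tbx2 (8964 bp), Islr2 (8184 bp) and Bcl11a (7337 bp). In pig it was at NRP2 (5365 bp), BCORL1 (4706 bp), LHX2 (4154 bp), MEX3B (4065 bp) and SHH (4050 bp), the ligand of the posterior limb organizer. The pig PRDM16 domain was turned the other way, with 4532 bp upstream and 225 bp downstream. Short genes lay whole inside the domain in 26 of the 192 mouse domains (13.5%) and 14 of the 290 pig domains (4.83%). Other TSS peaks of that kind gave 3.13% in mouse and 0.957% in pig. Those among the next 500 by width gave 6.61% and 3.96%. The short genes inside domains were Irx5, Islr2, Gsc, Dusp6, Twist1, Hes1, Sox4, Fzd2, Fzd10 and Hoxc11 among others in mouse, and ACTG1, JUN, FZD2 and DDIT4 among others in pig.

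**Figure D2:**
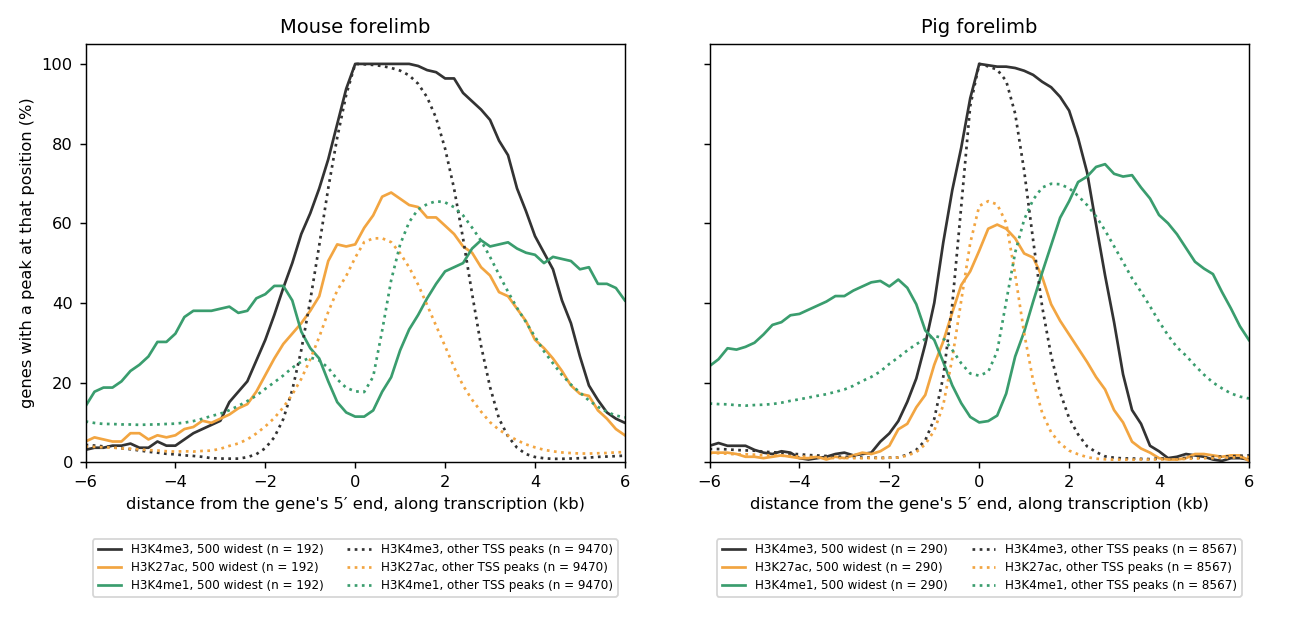
Percent of genes with a called peak at each distance from the gene's 5′ end, in kb along transcription, for H3K4me3 (black), H3K27ac (orange) and H3K4me1 (green); solid lines are the broad domains with 1 coding gene (n = 192 mouse, n = 290 pig) and dotted lines the other H3K4me3 peaks at a TSS. At 4 kb downstream H3K4me3 was called at 56.8% of the mouse genes and 2.76% of the pig genes with a broad domain, and H3K4me1 at 52.1% and 62.1%.

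H3K27ac covered most of the mouse domains and did so more often than it covered H3K4me3 peaks in general. It overlapped 350 of 500 mouse domains by 1 bp or more (70.0%, interval 65.8 to 73.9), against 50.9% of all mouse H3K4me3 peaks, 56.8% of other peaks at a TSS and 66.0% of the next 500 peaks by width. In pig it overlapped 338 of 500 (67.6%, 63.4 to 71.6), against 56.5% of all peaks, 64.8% of other TSS peaks and 64.2% of the next 500. A wide peak meets another peak more easily, so the central 1 kb of each peak was also compared. There H3K27ac lay on 64.0% of mouse domains, against 50.1% of all peaks, and on 65.0% of pig domains, against 56.4%. The pig share was the same, to within its interval of 60.7 to 69.1, as that of other TSS peaks (64.7%). Thus in mouse the domains carried H3K27ac more often than other TSS peaks, and in pig neither of these shares differed from theirs beyond counting error. The next 500 peaks by width had H3K27ac at the centre on 63.6% in mouse and 62.6% in pig, both within the intervals of the domains, so the mouse excess was not particular to the 500 widest. At least 50% of the width was under H3K27ac in 60.4% of mouse domains, against 46.2% of all peaks and 51.9% of other TSS peaks. In pig that share was 54.2% (49.8 to 58.5), against 53.9% of all peaks and 62.2% of other TSS peaks, which is above that interval. The next 500 peaks by width had 56.8% in mouse and 55.8% in pig, both within the intervals of the domains. A set share of the width asks for more base pairs in a wide peak, so this measure leans against the domains.

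H3K4me1 lay at the ends of the domains and less often at their centres, in mouse as in the next 500 peaks by width. It overlapped 425 of 500 mouse domains (85.0%, 81.6 to 87.9), against 73.2% of all mouse peaks, and 459 of 500 pig domains (91.8%, 89.1 to 93.9), against 75.0% of all pig peaks. At the central 1 kb the order turned round: H3K4me1 lay on 49.2% of mouse domains (44.8 to 53.6), against 59.5% of all peaks, and on 45.8% of pig domains (41.5 to 50.2), against 60.2%. That window lies farther from the ends of a wide peak than from those of a narrow one. Pig peaks of ranks 16001 to 16500 had a median width of 959 bp, so it reached past the ends of many of them. How much of the difference comes from width alone was not tested. The next 500 peaks by width had H3K4me1 somewhere on 87.8% and at the centre on 51.2% in mouse, the central share within the interval of the domains, and on 90.2% and 56.2% in pig, where the central share was above that interval. At least 50% of the width was under H3K4me1 in 42.6% of mouse domains against 47.6% of all peaks, and in 30.6% of pig domains (26.7 to 34.8) against 38.4%. Other TSS peaks had 48.8% in mouse and 32.9% in pig, the pig share within the interval of the domains. The next 500 by width had 44.0% and 35.8%. In the 500 bp just outside the peak, H3K4me1 was called on both sides of 27.4% of mouse domains and 39.2% of pig domains, against 19.3% and 35.4% of all peaks. For the next 500 by width these shares were 27.6% and 33.8%.

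The profile along genes showed the same layout. At the 5′ end itself H3K4me1 was called at 11.46% of the mouse and 10.0% of the pig genes with a broad domain, and at 17.8% and 21.7% of the genes with another TSS peak. At 4 kb downstream the broad domains had H3K4me1 at 52.1% of mouse genes and 62.1% of pig genes, and other TSS peaks at 31.5% and 35.3%. H3K27ac at 2 kb downstream was called at 59.4% of the mouse and 32.1% of the pig genes with a broad domain, against 29.1% and 2.92% for other TSS peaks. At 2 kb H3K4me3 was still called at 96.4% of the mouse and 88.3% of the pig genes with a broad domain, and at 78.7% and 11.1% of those with another TSS peak. The domains were chosen by width, so these differences at set distances describe wide peaks beside narrower ones. Within the pig domains, H3K27ac covered a much smaller share of genes at 2 kb than H3K4me3 did.

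**Figure D3:**
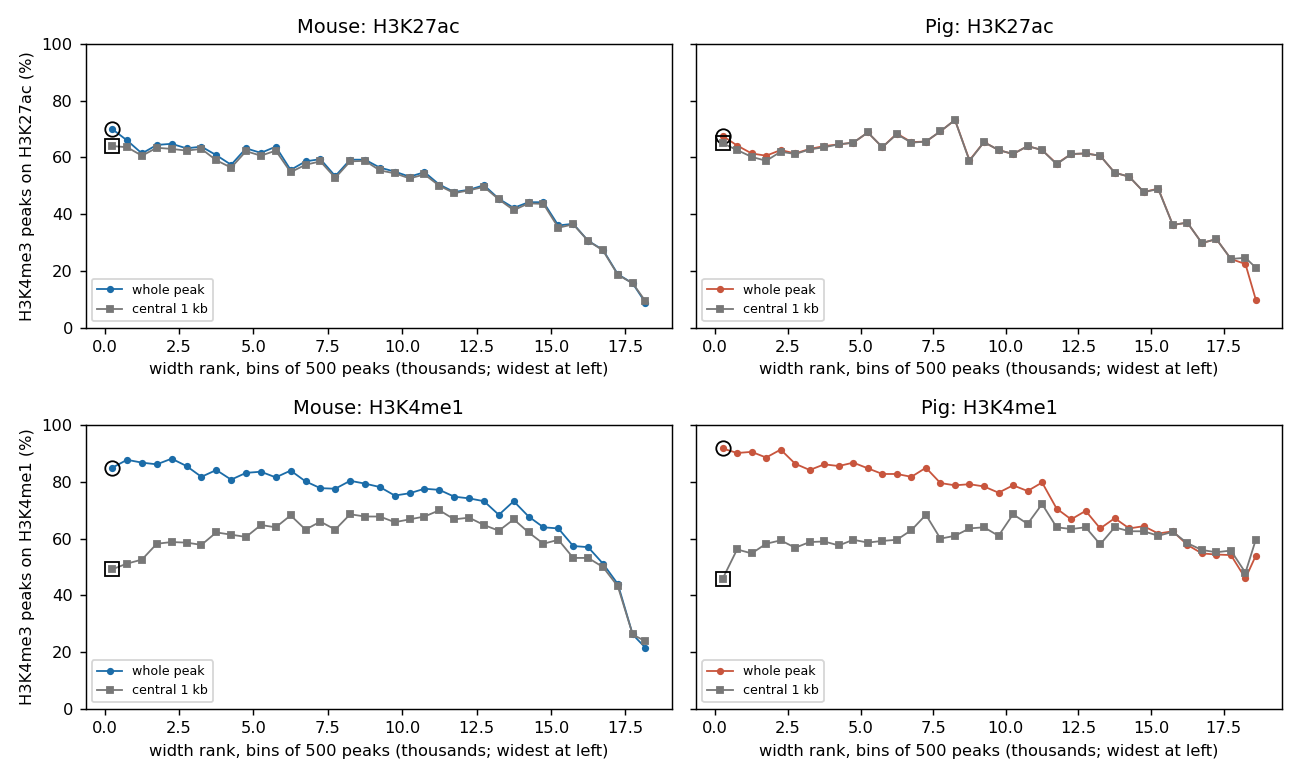
Percent of H3K4me3 peaks that overlap H3K27ac (top) or H3K4me1 (bottom) in bins of 500 peaks ordered by width, widest at left, for the whole peak (coloured circles) and its central 1 kb (grey squares); large open symbols mark the 500 widest. For H3K4me1 the symbols of the 500 widest stand at 85.0% and 49.2% in mouse and at 91.8% and 45.8% in pig, farther apart than those of the narrow peaks at right. The central 1 kb takes up more of a narrow peak, so the symbols lie closer there by the measure itself.

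A part of the domains carried no H3K27ac. Both other marks were called somewhere on 306 mouse and 305 pig domains, H3K4me1 without H3K27ac on 119 and 154, H3K27ac without H3K4me1 on 44 and 33, and neither on 31 and 8. Neither mark was called on 18.4% of all mouse peaks and 11.53% of all pig peaks, against 6.2% and 1.6% of the domains. A wide peak has more room to meet a mark, and at the central 1 kb the shares were closer, with neither mark on 17% of mouse domains against 22.5% of all peaks, and on 12.8% of pig domains against 14.2%. Among other TSS peaks 17.6% had neither mark at the centre in mouse and 10.4% in pig. The widest mouse TSS domains without H3K27ac included those at Islr2 (8600 bp), a surface protein of neurons and mesenchyme, Arl6ip4 with Ogfod2 (7810 bp), Tfap2e (7057 bp), an AP-2 factor, Tmem114 (6773 bp) and Tbx1 (6528 bp), a T-box factor of the pharyngeal region. A domain over a cluster of transfer RNA genes was also in this set, at 6722 bp, and like that of Tbx1 had neither mark. In pig the set was led by MN1, BCORL1, IRX2 and PRDM16, followed by RARG (4419 bp), CAPN10 (4345 bp), TRIM8 (4325 bp), EGFL7 (4309 bp) and SHH (4288 bp). The pig BCORL1 domain had neither mark, and the others named from pig overlapped H3K4me1.

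Prdm16 and Mn1 differed between the species in this respect. The mouse Prdm16 domain was under H3K27ac over 81.5% of its width and the pig domain over none of it. The mouse Mn1 domain (5804 bp) was under H3K27ac over 90.8% and the pig domain over none, while the pig domains were under H3K4me1 over 70.6% (PRDM16) and 68.8% (MN1). These are single consensus calls, and with no signal values a peak that was missed cannot be told apart from a mark that was absent.

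Of the 500 domains, 78 in mouse and 34 in pig covered no annotated TSS, 1 of the mouse ones because it lay on a scaffold that was not annotated here. The mouse ones lay at a median of 12.8 kb from the nearest TSS, with 12 within 5 kb, 7 beyond 50 kb and 47 inside a gene body. The pig ones lay closer, at a median of 5.21 kb, with 17 within 5 kb, 2 beyond 50 kb and 25 inside a gene body. In mouse their sequence differed from that of the domains at a TSS, with a median observed over expected CpG ratio of 0.248 against 0.514, and 0.315 for other H3K4me3 peaks without a TSS. In pig the ratios were 0.661, 0.674 and 0.545, so the pig domains without a TSS were close in CpG content to those with one. The marks split in the same way. At the central 1 kb of the mouse domains without a TSS, H3K4me1 was called on 57 of 78 (73.1%, 62.3 to 81.7) against 44.8% of those with a TSS. H3K27ac was called at that centre on 38.5% of the mouse domains without a TSS and 68.7% of those with one. In pig central H3K4me1 was on 47.1% of the domains without a TSS and 45.7% of those with one, and central H3K27ac on 64.7% and 65.0%. Other H3K4me3 peaks without a TSS had central H3K4me1 on 48.8% in mouse and 64.7% in pig. Central H3K27ac was on 24.9% and 35.1% of them. Those peaks are narrower than the domains, and how much of the difference comes from width was not tested.

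Single domains without a TSS varied around these medians. The sixth widest mouse peak, 9174 bp long, lay inside Meis2, a homeobox factor of the proximal limb, 45.5 kb from the nearest annotated TSS, with a CpG ratio of 0.504, H3K27ac over 46.9% of its width and no H3K4me1. The mouse peak of rank 11, 8188 bp, lay outside genes, was 76.9% repeat sequence with a CpG ratio of 0.096, and was under H3K27ac over 89.3% with no H3K4me1. The mouse peak of rank 32, 7412 bp and 36.2 kb from the TSS of Rfx8, lay entirely under H3K4me1. In pig the domains of ranks 4, 7 and 18 lay inside SMAD6, DUSP7 and EBF2, at 2.68, 2.03 and 2.5 kb from the TSS of the same genes. SMAD6 inhibits BMP signalling and DUSP7 is a phosphatase of MAP kinases. The pig domain of rank 34 (4377 bp) lay inside WWP2, 2.73 kb from the start of MIR140, a microRNA of cartilage, and the mouse domain at Mir140 was 7129 bp wide.

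The sequence of the domains was slightly richer in CpG than that of all H3K4me3 peaks. Against other peaks at a TSS, the mouse domains at a TSS were slightly richer and the pig ones were not. The median CpG ratio over the whole peak was 0.484 in mouse domains and 0.453 in all mouse peaks, and 0.674 in pig domains and 0.650 in all pig peaks. The domains at a TSS had 0.514 in mouse and 0.674 in pig, and other TSS peaks 0.483 and 0.679. At the central 1 kb the mouse domains at a TSS had 0.552, above the 0.536 of other TSS peaks. The pig domains at a TSS had 0.730 there, below the 0.744 of other TSS peaks. All domains, with or without a TSS, had 0.489 in mouse and 0.725 in pig at the centre. Because the domains are long, they held a median of 187 CpGs in mouse and 245 in pig, against 92 and 94 in all peaks. The pig domains thus held more CpGs than the mouse domains although they were narrower.

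Genes of the limb patterning programme were frequent in the domains, in mouse most of all the transcription factors of limb mesenchyme. These gene lists were drawn up with earlier results of the same data known, so the counts are a description. Of 40 limb mesenchyme factors the mouse domains covered 22 (55.0%) and the pig domains 12 (30%), against 2.40% and 2.62% of all coding genes. The mouse members included Tbx2, Irx5, Msx2, Prrx1, Twist1, Shox2, Osr2, Lhx2, Meis1, Nr2f2, Osr1, Nr2f1, Emx2, Alx4, Hand2, Sall3, Lhx9, Twist2, Tbx15, Lmx1b and Sall1. The pig members included TBX15, NR2F2, IRX2, LHX2, MSX1, TWIST2, TBX3, HIC1, IRX3, ZBTB16 and OSR1. Lhx2, Nr2f2, Osr1, Tbx15 and Twist2 were in both. H3K27ac overlapped all 22 mouse domains of the list, against 70.0% of all 500, and 10 of the 12 in pig, the exceptions being IRX2 and HIC1. Tbx5, which sets forelimb identity, was outside the domains with a width of 3952 bp in mouse and 1367 bp in pig.

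In mouse the domain did not always hold the TSS. An annotated TSS lay inside the domain for 14 of the 22 mouse factors and 10 of the 12 pig factors. For the other 8 in mouse (Hand2, Msx2, Alx4, Sall1, Lhx9, Lmx1b, Osr1 and Osr2) the domain ended between 30 bp (Osr1) and 450 bp (Lmx1b) from the nearest TSS. The Osr1, Osr2, Alx4, Sall1 and Lhx9 domains lay wholly within the gene, and the Lmx1b domain lay wholly outside it.

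In mouse the limb mesenchyme factors had a larger share in the domains than any signalling list. In pig their share of 30% was below those of the axon guidance (38.5%), WNT (36.4%), chondrogenic (36.4%), hedgehog (35.7%) and retinoic acid (33.3%) lists. Each of these holds fewer genes. With pig peaks up to 1 kb apart joined, 20 of 40 limb mesenchyme factors were covered. The other lists, in the order given, then had 9 of 26, 8 of 22, 3 of 11, 3 of 14 and 4 of 9. The limb mesenchyme share was then the largest of these, so the order in pig depends on how peaks are joined. In the WNT list the mouse domains covered 5 of 22 genes and the pig domains 8 of 22. The ligands Wnt5a and Wnt11 and the receptors Fzd2 and Fzd10 were in both, Wnt5b in mouse only, and the receptors FZD7 and FZD8, the effector LEF1 and the potentiator RSPO3 in pig only. In the hedgehog list mouse had 2 of 14, Gli3 (5224 bp) and Sufu (5086 bp), an effector and its inhibitor. Pig had 5 of 14, the ligand SHH (4288 bp), the receptor PTCH1 (3715 bp), the effectors GLI3 (3512 bp) and GLI1 (3344 bp), and the coreceptor BOC (3319 bp). In the BMP list each species had 3 of 17. The ligand Bmp4 and the inhibitor Smad7 were in both, Smad6 in mouse and BMP2 in pig. In the FGF list mouse had 4 of 15 (the feedback regulators Dusp6 and Spry2, the ligand Fgf9 and the receptor Fgfr2) and pig 1, FGFR1. Of 26 axon guidance genes, 3 were in the mouse set and 10 in the pig set, Efna5 and Nrp2 among both. Of the chondrogenic genes, Sox9 (5384 bp in mouse, 4205 bp in pig), the master factor of cartilage, and Foxc1 were in both, and SOX6 (4170 bp) and COL2A1 (4392 bp), the cartilage collagen, in pig only.

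Of 9 posterior HoxA and HoxD genes, which pattern the limb along its length, the mouse domains covered 1, Hoxa11 (5322 bp), and the pig domains covered 2, HOXA10 (3790 bp) and HOXA13 (3463 bp). These are 11.1% and 22.2% of the list, against 2.40% and 2.62% of all coding genes. Hoxd13 was just outside in mouse at 5008 bp, and Hoxd9 had 3866 bp. The median of all mouse H3K4me3 peaks was 3308 bp. Narrower than that were Hoxa10 (2751 bp), Hoxd10 and Hoxd11 (both 2447 bp), Hoxd12 (2436 bp) and Hoxa13 (2124 bp). Genes of hindlimb identity formed a separate case in mouse: Tbx4 (5369 bp), Hoxc10 (5358 bp) and Hoxc11 (5111 bp) were 3 of 6 listed hindlimb genes, all in forelimb domains with neither H3K27ac nor H3K4me1. None of the 6 was in the pig domains.

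Markers of other cell types that a dissected limb can hold were counted beside these. The mouse domains held 2 of 10 muscle precursor genes (20%, Lbx1 and Pax3) and 2 of 10 blood genes (20%, Tal1 and Runx1). They also held 2 of 15 limb ectoderm genes (13.3%, Sp8 and En1) and 1 of 8 neural crest and glia genes (12.5%, Tfap2b). The share of all coding genes was 2.40% in mouse and 2.62% in pig. The pig domains held SIX4 of 10 muscle precursor genes (10%) and DLX5 and ESRP1 of 13 ectoderm genes (15.4%). None of the 11 endothelial genes was in either set, and none of the 10 neuronal genes in mouse or of 9 in pig. At the shares of all coding genes most lists of this length would have no member, so a count of 0 says little. The liver and heart lists had no member in either species. Ribosomal protein genes gave 2 of 25 in mouse (8%) and 0 of 25 in pig. Housekeeping genes gave 1 of 15 in mouse (6.67%, Tbp) and 2 of 14 in pig (14.3%, ACTB and GAPDH). Whole tissue does not tell which cells carry a domain.

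**Figure D4:**
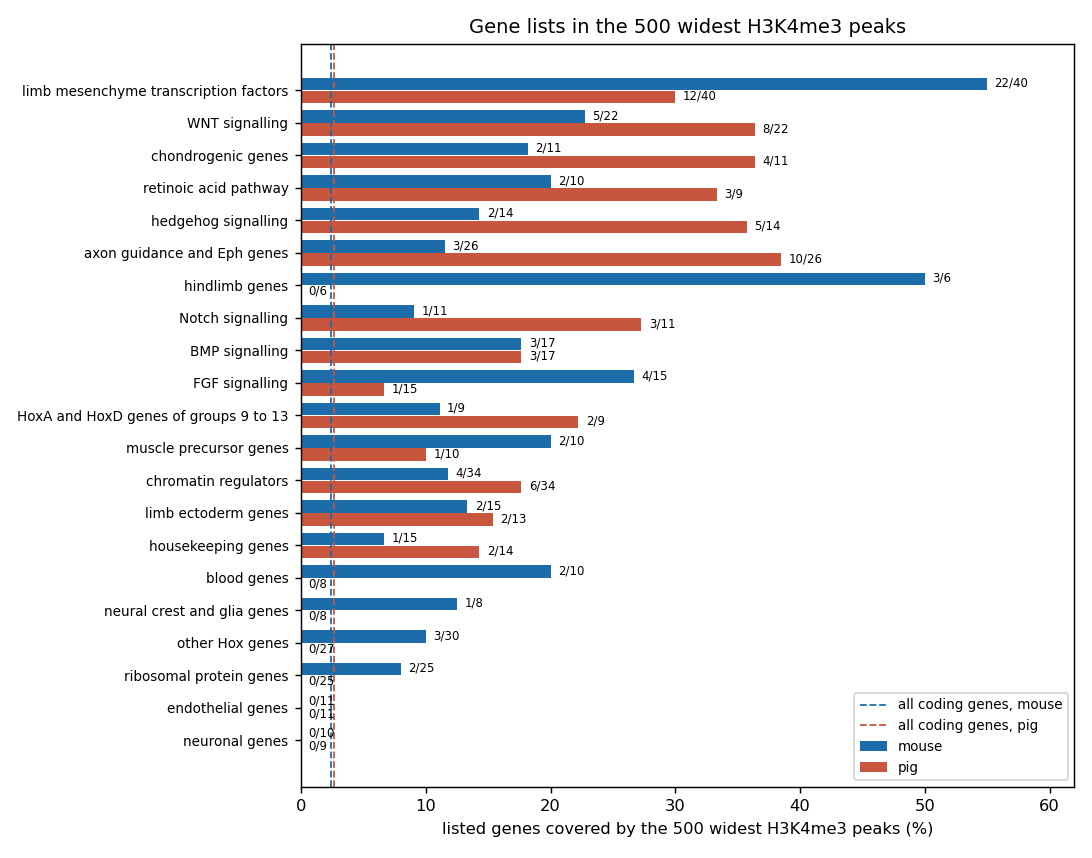
Percent of the annotated genes of each list that the 500 widest H3K4me3 peaks cover in mouse (blue) and pig (red), with the counts at the bars; dashed lines are the shares of all coding genes, 2.40% in mouse and 2.62% in pig. The limb mesenchyme factors reach 55.0% in mouse and 30% in pig, and the bars of the endothelial and neuronal lists stand at 0. Lists for liver and heart, both at 0, are left out.

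The domains of the species were next compared through orthologs, taken as genes with the same symbol and 1 record in each annotation. Of 15164 orthologs, the mouse domains covered 460 (3.03%) and the pig domains 482 (3.18%), and 104 were covered in both (0.686% of all). These 104 were 22.6% of the mouse list (interval 19.0 to 26.7) and 21.6% of the pig list (18.1 to 25.5). If coverage in one species were unrelated to that in the other, the product of the shares would give 14.6 genes, so the observed count was 7.11 times that number. Restricted to the 11237 orthologs with H3K4me3 at the TSS in both species, of which the mouse domains covered 420 (3.74%) and the pig domains 479 (4.26%), the count was 5.81 times the product of shares, which is 17.9. The 104 orthologs lay in 89 domains of each species, since neighbouring genes can share a domain.

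The shared domain with the smallest sum of ranks over both species was that of Prdm16, ranked 3 in mouse and 12 in pig. Lhx2 (6910 bp in mouse, 4635 bp in pig), Ddr1 (6616 and 4599 bp), the adhesion molecule Pcdh17 (6697 and 4504 bp), Nr2f2 (6364 and 4938 bp) and Nrp2 (6193 and 5443 bp) followed by this measure. The chromatin protein Ptma, Arhgef17, Pcdh7, Igf2bp1, Mex3b, Mn1, the pair Caskin2 and Tsen54, Ppp1r9b and the mesenchymal cadherin Cdh11 came next. Ssbp4, Wnt5a, Cd248, Pdgfra, Mecom, Sim2, Bcl11a, Smad7, Fosl2, Hs3st3b1, Tgif1, Bcorl1 and Mex3a were also among the first 30. Pdgfra (5591 and 4312 bp) is a receptor of mesenchymal growth factors, and its domain was under H3K27ac over 81.7% in mouse and 86.2% in pig, with no H3K4me1 in either. H3K27ac overlapped the domain in both species for 77 of the 104 (74.0%), against 54.8% of all orthologs marked in both. Among orthologs marked in both, the share was 55.7% for those in the mouse domains only and 52.3% for those in the pig domains only. These are overlaps of 1 bp or more, which a wide peak meets more easily, and genes that share a domain are each counted. Of the 104, H3K27ac was in mouse only for 12, in pig only for 3 and in neither for 12, among them Sim2, Bcorl1, Rarg, Gdf6 and Trim8.

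An ortholog of a broad domain in one species was usually marked by a peak of above-average width in the other. Most orthologs marked in both species were so as well, but less often. Of the 460 orthologs of the mouse domains, 420 had a pig H3K4me3 peak, at a median width percentile of 83.9 (quartiles 56.4 and 97.3), against 65.5 for all orthologs marked in both. Of the 482 of the pig domains, 479 had a mouse peak, at a median percentile of 88.9 (74.5 and 96.5), against 62.6. The spread was wide, since 19.1% of the 420 fell in the narrower part of the pig peaks, below their median. The share was 31.1% for all orthologs marked in both. Of the 479, 8.77% fell in the narrower part of the mouse peaks, against 35.4% of all orthologs marked in both. Across the 11237 orthologs the width ranks had a Spearman rank correlation of 0.32, a description across genes that share 2 peak lists.

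The extremes were in single species. Irx5 had a mouse domain of 9146 bp and a pig peak of 761 bp, and Hoxa11 had 5322 and 1005 bp, though joining nearby peaks gave larger widths for both in pig. HOXA13 went the other way, with 3463 bp in pig and 2124 bp in mouse, where that width is at percentile 10.7. ESRP1, a splicing factor of epithelium, had 4036 bp in pig and 2451 bp in mouse. Of the 40 mouse orthologs without a pig peak at the TSS, Islr2, Prrx1, Mir140 and Tfap2e were among those with the widest mouse domains. For Prrx1 the nearest pig peak, 2133 bp wide and inside the gene, ended 1.08 kb from the annotated start, just outside the window of 1 kb. For Islr2 the nearest pig peak, of 980 bp, was 4.64 kb away, for Tfap2e it was 15.4 kb away, and for Tbx1 24.1 kb. The 3 pig orthologs without a mouse peak at the TSS were MYLK4, FBXO24 and CDHR4.

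Joining peaks up to 1 kb apart before ranking changed the pig set far more than the mouse set. Of the 500 joined domains, 176 in pig and 44 in mouse were made of more than 1 deposited peak, with a median of 2 in both. In pig 339 of the 500 domains kept a place and in mouse 463. Tbx2 then had the widest pig domain, at 8058 bp, where the widest deposited peak was 2564 bp, and Wnt5a the second, at 7906 bp in place of 3518 bp. BRD2 came to 7061 bp and BCL11A to 6336 bp. The sum of ranks over both species was then smallest for Tbx2, ranked 2 in mouse and 1 in pig, followed by Wnt5a, ranked 3 and 2. In mouse the widest became Nr2f2, at 11428 bp. The limb mesenchyme factors in the pig domains rose from 12 to 20, while the mouse count stayed at 22, and Tbx2, Tbx5, Hand2, Shox2, Sall1, Meis2, Lhx9, Lmx1b and Emx2 entered in pig while OSR1 left. Hoxa11 entered as well, with 4551 bp in place of 1005 bp, and Irx5 came to 2945 bp in place of 761 bp without entering. The pig hedgehog count fell from 5 to 3, as GLI1 and BOC left, and the pig FGF count rose from 1 to 3, as DUSP6 and SPRY2 entered. The shared orthologs numbered 146, of which 80 were among the 104, and the ratio to the product of shares was 9.78. They were 31.3% of the mouse list and 30% of the pig list, so most genes of either list were still in 1 species only, and 24 of the 104 were no longer shared.

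**Figure D5:**
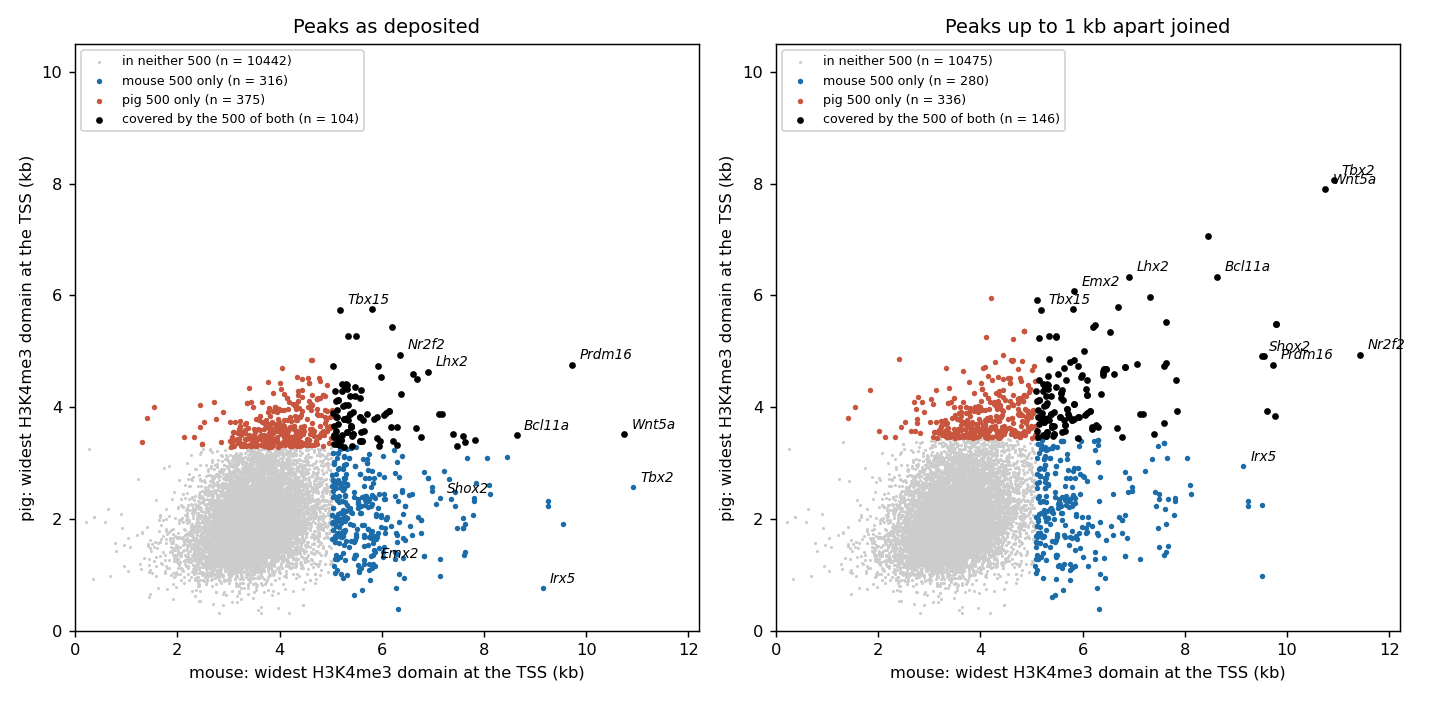
Width in kb of the widest H3K4me3 domain at the TSS in mouse (x axis) and pig (y axis) for each ortholog marked in both, as deposited (left) and with peaks up to 1 kb apart joined (right); black points are covered by the 500 widest of both species (104 at left, 146 at right), blue by the mouse 500 only and red by the pig 500 only. Tbx2 stands at 2564 bp in pig at left and at 8058 bp at right.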

How the data were processed

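The 6 deposited lists of peak positions were used, 1 for each of H3K4me3, H3K27ac and H3K4me1 in mouse and pig forelimb. Each holds the chromosome, start and end that the authors called, with no other column. Per the labels' protocols, chromatin was fixed with 1% formaldehyde and sonicated. Per the series' design text, the alignment was to GRCm38 in mouse and Sscrofa11.1 in pig, and broad peaks were kept at an irreproducible discovery rate under 0.01. Per the submitters' processing notes, the tools were Bowtie2 2.3.5, Trimmomatic 0.39, FastQC 0.11.9, deepTools 3.5 and SAMtools 1.9. The sources used here do not name a program that called peaks.

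Peaks were ranked by width and placed on the RefSeq annotation and genome of the same assemblies with Python 3.11.15 and numpy 2.4.6. A gene was covered when at least 1 bp of a peak lay within 1 kb of the start of one of its transcripts, so a covered TSS can lie just outside the peak. The 17 mouse H3K4me3 peaks on scaffolds not annotated here, 1 of them a member, were ranked but covered no gene. Orthologs were matched by symbol, so genes named differently in the 2 annotations were missed. Wilson intervals came from scipy 1.17.1 and figures from matplotlib 3.10.9. No significance test was run, and the counting functions were tested on simulated peaks.

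The members, gene lists and comparisons were chosen with earlier results of these data known. Genes named in the text are those of the 20 widest peaks, the 30 shared orthologs with the smallest sum of ranks, members of the gene lists, and the 10 most extreme by reach, by lack of H3K27ac, of a TSS, or of a peak in the other species. Some genes that meet these rules are not reported here. The printed sequences were chosen after they were seen, among windows inside the domain. The Wnt5a window overlaps no annotated exon, and the windows at the centres of the other domains were not checked for exons. Alternatives were the number of peaks taken, joined peaks, assembled chromosomes only, other TSS windows and other measures of overlap.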

Additional observations from a re-analysis of the deposited data

How the results depend on the processing

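No paired analysis was possible because each peak list is a consensus with no value per replicate. For the same reason no replicate could be left out, and a stricter peak threshold could not be set, since the lists hold no scores. Of 107 alternative values of 15 results, 81 stayed within the interval of the value reported or within 1.5 times a count or ratio, and 26 moved. With the TSS itself inside the peak, 80.2% of mouse and 88.6% of pig domains covered a TSS. With the 5′ end of the gene alone they were 78.2% and 83.6%, and with a window of 2.5 kb the pig share was 95.4%. H3K27ac fell on 64.0% of mouse domains at the central 1 kb, and on 60.4% of mouse and 54.2% of pig domains when at least 50% of the width had to be covered. H3K4me1 fell on 49.2% and 45.8% at the centre and on 42.6% and 30.6% by that width. Among mouse domains with a TSS the H3K27ac share was 74.4%, and among those with 1 coding gene 76.5%, both chosen after seeing the data. The 1000 widest gave 237 shared orthologs at 3.97 times the product of shares, or 3.24 times among orthologs marked in both, and the 250 widest gave 29 shared orthologs. Domains with 1 coding gene alone, also chosen after seeing the data, gave 64 at ratios of 11.1 and 9.41. The limb mesenchyme factors in the mouse domains were 14 among the 250 widest and 14 with the TSS inside the peak, and those in pig were 20 with joined peaks. The pig CpG ratio was 0.725 at the central 1 kb and 0.689 for the 250 widest. Beyond the smaller or larger sets that these settings define, the cause of each shift was not tested.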

Other observations

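The surroundings of the domains, looked at after the other results were known, differed from those of other peaks mainly in H3K4me1. Within 50 kb on each side, outside the peak, mouse domains had a median of 19.3 kb under H3K4me1 (quartiles 12.8 and 26.4), against 14.4 kb for all mouse H3K4me3 peaks and 17 kb for the next 500 by width. Pig domains had 28.6 kb (21.4 and 35.9), against 19.8 kb and 27.5 kb. H3K27ac peaks that met no H3K4me3 peak were found in that span at 52.2% of mouse and 51.2% of pig domains, against 46.1% and 47.2% of all H3K4me3 peaks, and 46% and 52.6% of the next 500 by width. The pig domains of BMF and BOC had the most such peaks, 8 each, and ZFP36L2 had 7. In mouse the domain over Dnm3os, which hosts Mir199a-2 and Mir214, had 5, as did that of Igf2, a growth factor.

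By the RefSeq descriptions, homeobox genes made up 25 of 181 orthologs in the mouse domains (13.8%) and 13 in the pig domains (7.18%), against 3.03% and 3.18% of all orthologs. T-box genes gave 4 of 15 in mouse and 2 in pig, SRY-box genes 4 of 19 in each, forkhead genes 2 of 43 and 6, and frizzled receptors 2 of 11 and 4. Genes of solute carriers gave 3 of 345 in mouse (0.870%) and 10 in pig (2.90%). These families were defined after the files were read. Pig chromosome 12 held 48 of the 500 pig domains (9.60%), against 5.67% of all pig H3K4me3 peaks.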
